A study of Mus musculus with 4 samples.

Results

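LSD1 (lysine-specific demethylase 1, gene Kdm1a) acts in a complex with a CoREST scaffold (Rcor1 or Rcor2) and the histone deacetylases HDAC1 and HDAC2, and the question here was whether the library made with the LSD1 antibody was enriched at these 5 genes. The members were the 5 windows of the mouse genome (build mm9) that hold Kdm1a, Rcor1, Rcor2, Hdac1 and Hdac2. They were chosen by gene and not by a cut on their values, though earlier results of these data were known. They contain 10 of the 5106 called LSD1 peaks, 16 of the 32256 called H3K4me2 peaks and 3 of the 158 peaks called in control IgG. H3K4me2 is histone H3 dimethylated at lysine 4, the substrate of LSD1.

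The data come from ChIP-seq of R1, a mouse embryonic stem cell line (129SV, passages 13 to 18), grown on gelatin with leukaemia inhibitory factor. There were 4 groups with 1 library each: LSD1 ChIP, H3K4me2 ChIP, control IgG, and the Input DNA of the same kind of cells without antibody. The catalogue number that the labels give for the LSD1 antibody is one known for an H3K27me3 antibody, which was not resolved, so the name LSD1 follows the label. With 1 library a group there is no replicate check and no p-value, and every interval is a 95% interval for counting error alone. The libraries held 3801082 (Input), 4755619 (IgG), 5833862 (LSD1) and 6416657 (H3K4me2) reads. Levels are given per 1000000 reads of a library (RPM), and per kb of region. A ratio sets one library's RPM over another's in the same region. An interval is called above 1 when its lower end exceeds 1, with no adjustment for the number of regions. In Input a count of 0 allows up to 3 reads, or 0.789 RPM.

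In this complex LSD1 strips the mono- and dimethyl marks from lysine 4 of histone H3, the CoREST proteins tie the demethylase to nucleosomes and to the deacetylases, and HDAC1 and HDAC2 remove acetyl groups from histone tails. In embryonic stem cells LSD1 is known to occupy promoters and enhancers of active genes and to be needed for silencing of stem cell enhancers during differentiation. Rcor2 is known as the CoREST member that is prominent in embryonic stem cells, whereas Rcor1 is expressed widely.

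The starts of 4 of these genes are printed for their CG dinucleotides, because H3K4me2 commonly marks promoters rich in them. RefSeq gave a start for 4 of the 5 genes in build GRCm38.p6, and the 250 bases before it are printed 5′ to 3′ on the gene's strand with each CG in capitals. They lie at chr4:136602724-136602973 (minus strand), chr12:111039117-111039366, chr19:7267144-7267393 and chr10:36974294-36974543 (plus strand), all GRCm38.p6 positions, which cannot be set against the mm9 positions used below.
Kdm1a: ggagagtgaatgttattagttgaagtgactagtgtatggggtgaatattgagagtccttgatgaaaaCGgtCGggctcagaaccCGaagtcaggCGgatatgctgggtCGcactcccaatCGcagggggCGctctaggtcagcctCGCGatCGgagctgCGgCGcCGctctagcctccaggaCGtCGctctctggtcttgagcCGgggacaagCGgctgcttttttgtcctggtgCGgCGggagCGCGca
Rcor1: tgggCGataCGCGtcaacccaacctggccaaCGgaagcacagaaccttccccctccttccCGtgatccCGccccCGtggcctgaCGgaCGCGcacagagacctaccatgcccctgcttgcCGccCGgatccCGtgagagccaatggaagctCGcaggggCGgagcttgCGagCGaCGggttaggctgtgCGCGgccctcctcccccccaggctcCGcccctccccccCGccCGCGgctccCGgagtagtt
Rcor2: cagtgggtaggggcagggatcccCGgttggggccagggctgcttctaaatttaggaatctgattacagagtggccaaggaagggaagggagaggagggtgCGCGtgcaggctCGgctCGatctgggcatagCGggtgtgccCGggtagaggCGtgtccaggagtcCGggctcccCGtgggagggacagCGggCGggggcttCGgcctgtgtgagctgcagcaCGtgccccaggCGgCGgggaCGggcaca
Hdac2: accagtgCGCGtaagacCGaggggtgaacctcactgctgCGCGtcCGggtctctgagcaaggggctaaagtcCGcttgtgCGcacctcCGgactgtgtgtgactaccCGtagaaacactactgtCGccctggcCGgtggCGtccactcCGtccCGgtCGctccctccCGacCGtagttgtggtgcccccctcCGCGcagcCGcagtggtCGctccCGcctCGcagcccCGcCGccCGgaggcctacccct
Kdm1a has 21 CG in this stretch, Rcor1 25, Rcor2 17 and Hdac2 27. Over the 32851 RefSeq promoters of the same length the median was 6. At least 17 CG, the count of Rcor2, occurred in 23.5% of all promoters, and at least 27, the count of Hdac2, in 8.56%. The GC box, searched as GGGCGG and CCGCCC so as to cover both strands, occurred 5 times at Rcor1, 1 time at Rcor2, 1 time at Hdac2 and not in this window of Kdm1a, and 32.7% of all promoters held it. No mm9 annotation was used, so no peak below is assigned to a promoter, exon or intron. In the order of the GRCm38.p6 table the next protein-coding genes are Luzp1 and Tex46 for Kdm1a, Ankrd9 and Traf3 for Rcor1, Naa40 and Mark2 for Rcor2, Marcksl1 and Lck for Hdac1, and Hs3st5 and Marcks for Hdac2. Some peaks of the windows may belong to these genes.

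Over the whole windows Rcor2 had the highest LSD1 level and LSD1 to IgG ratio. Windows ran from 20 kb at Rcor2 to 95 kb at Rcor1, so their shares of DNA outside H3K4me2 peaks differ. The 20 kb of Rcor2 held LSD1 reads at 2.97 RPM per kb, against 0.978 in IgG and 0.579 in Input, and H3K4me2 reads at 5.04. LSD1 over IgG came to 3.03 (2.41 to 3.86). In the other 4 windows the LSD1 level was between 0.476 RPM per kb at Hdac2 and 1.21 at Kdm1a. Their LSD1 to IgG ratios were 1.44 (1.18 to 1.77) at Hdac1, 1.28 (1.09 to 1.51) at Rcor1, 1.26 (1.10 to 1.44) at Kdm1a and 1.06 (0.807 to 1.40) at Hdac2, with intervals that overlap one another and lie below that of Rcor2. The LSD1 to IgG interval was above 1 in 4 of the 5 windows, all but Hdac2. Among tiles of the whole genome this was so for 8.31% at 20 kb, 10.7% at 45 kb, 12.3% at 75 kb and 13.2% at 95 kb, and among tiles with an H3K4me2 peak for 50.7%, 42.5%, 38.2% and 36.7%. LSD1 peaks were called in 2 of the 5 windows, Kdm1a and Rcor2. Tiles with an LSD1 peak made up 3.29% at 20 kb, 6.59% at 45 kb, 9.97% at 75 kb and 12.0% at 95 kb, and 22.4%, 26.9%, 31.0% and 33.1% of those tiles that held an H3K4me2 peak.

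**Figure D1:**
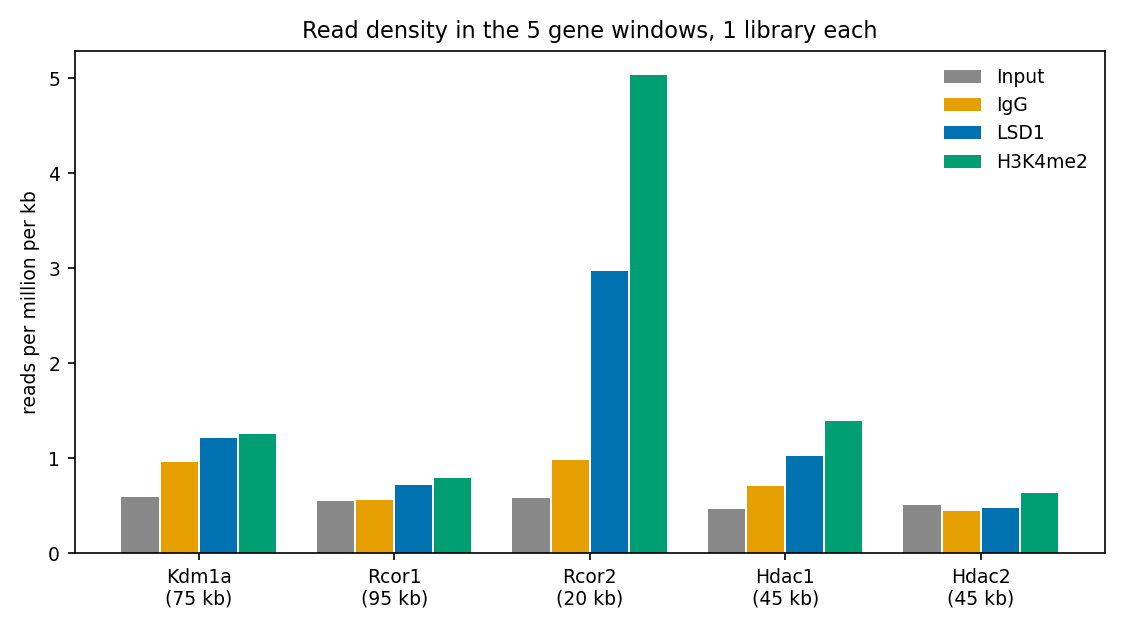
RPM per kb (vertical axis) in each of the 5 gene windows (horizontal axis, with window length) for the Input, IgG, LSD1 and H3K4me2 libraries, 1 bar per library and no error bars since each group is 1 library. Rcor2 has the highest LSD1 and H3K4me2 bars, 2.97 and 5.04, and Hdac2 the lowest, 0.476 and 0.634.

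The 16 H3K4me2 peaks comprise 3 at the demethylase gene Kdm1a, 3 and 5 at the scaffold genes Rcor1 and Rcor2, and 5 at the deacetylase gene Hdac1. Of the 16 peaks, 4 (25.0%) overlapped an LSD1 peak, 2 at Kdm1a and 2 at Rcor2, against 14.2% of all H3K4me2 peaks of the genome. None of the LSD1 peaks at Kdm1a had an LSD1 to IgG interval above 1. With only LSD1 peaks whose own interval lay above 1, a choice made after seeing the data, 2 of the 16 overlapped one. No share over all H3K4me2 peaks is given for that choice. The LSD1 to IgG interval was above 1 at 4 of the 16, 2 at Rcor1 and 2 at Rcor2, against 54.4% of all H3K4me2 peaks. With read starts not moved it was above 1 at 6 of the 16, with a peak of Kdm1a and a further peak of Rcor2 added. The share over all H3K4me2 peaks is not given for that setting, so the 2 counts cannot be set against the genome alike. The LSD1 to Input interval was above 1 at 7 of the 16, and at 68.0% of all. With the reads of all peaks of a gene summed, LSD1 over IgG was 5.12 (2.29 to 13.5) at Rcor1, 4.46 (3.17 to 6.42) at Rcor2, 1.71 (0.983 to 3.08) at Hdac1 and 1.57 (0.957 to 2.62) at Kdm1a. At Hdac1 and Kdm1a the call turned with the processing: with read starts not moved the values were 1.92 (1.11 to 3.41) and 1.83 (1.11 to 3.10), and scaled to reads outside peaks 1.85 (1.06 to 3.33) and 1.70 (1.04 to 2.84). The intervals of Rcor1 and Hdac1 overlap. Over all H3K4me2 peaks of the genome it was 3.38 (3.36 to 3.40). Hdac2 had no called peak of any list.

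**Figure D2:**
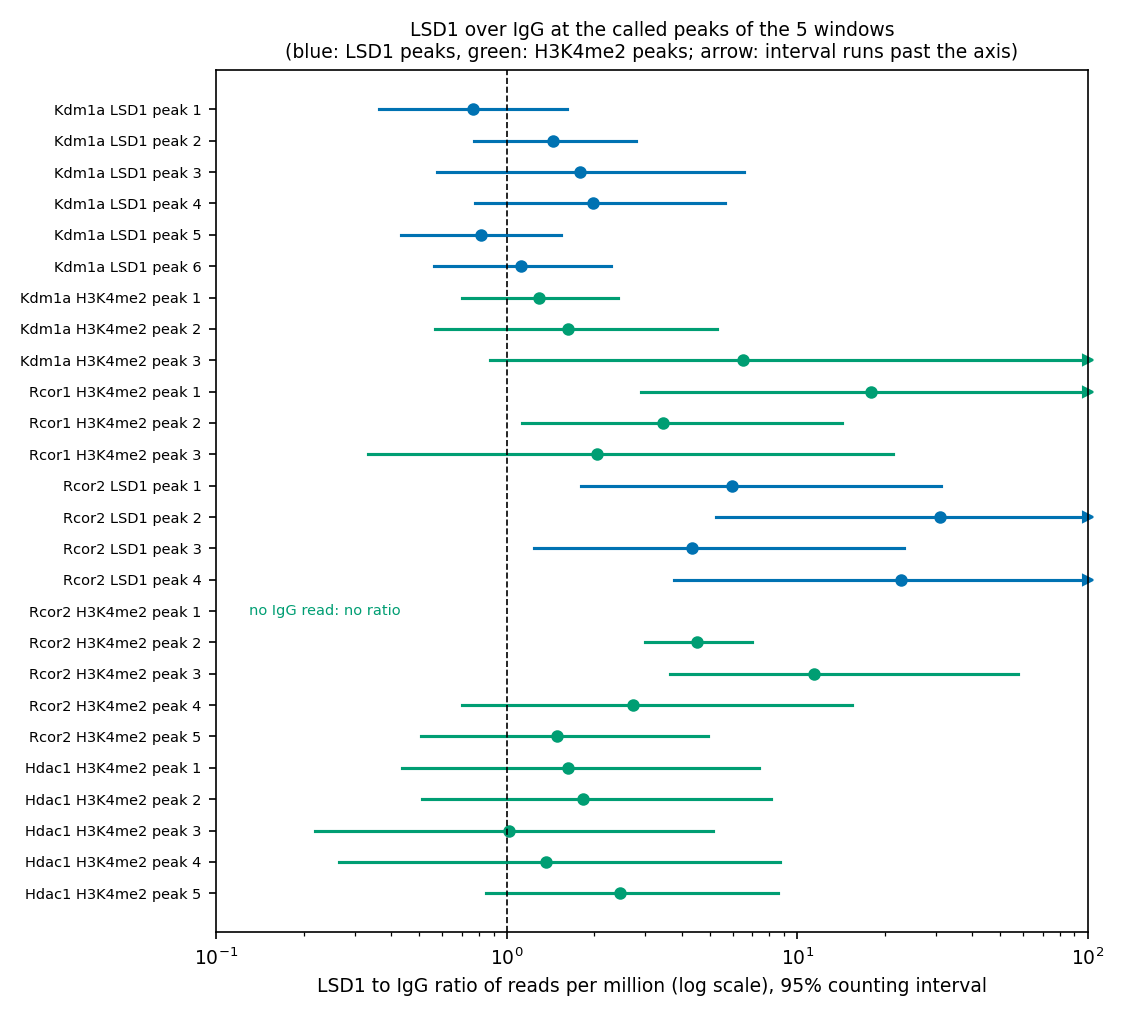
LSD1 to IgG ratio of RPM (horizontal log axis) with its 95% counting interval at each LSD1 peak (blue) and H3K4me2 peak (green) of the windows, numbered along the chromosome, and a dashed line at 1. The 4 LSD1 peaks of Rcor2 lie to the right of the line with their whole interval, and the intervals of all 6 LSD1 peaks of Kdm1a cross it. Of all LSD1 peaks of the genome 89.6% had an interval above 1.

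Kdm1a encodes LSD1 itself, the catalytic subunit. Its window, chromosome 4 from 136095000 to 136170000, held 6 LSD1 peaks, 3 H3K4me2 peaks and 3 IgG peaks. At least 6 LSD1 peaks occurred in 30 of 33936 tiles of 75 kb (0.0884%), and at least 3 IgG peaks in 3 of them (0.00884%). Over the 6 LSD1 peaks together the LSD1 level was 9.67 RPM per kb, beside 8.44 in IgG, 3.72 in H3K4me2 and 0.252 in Input.

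The peak from 136107729 to 136108004 held 16 LSD1, 17 IgG, 5 H3K4me2 and 1 Input reads. The peak from 136110044 to 136110306 had the highest LSD1 count of the 6, with 30 LSD1, 17 IgG, 15 H3K4me2 and 0 Input reads. The peak from 136111062 to 136111267 held 11, 5, 13 and 0 in the same order. These 3 lie within 4 kb of each other, and LSD1 and IgG rise in each of them. The peak from 136124353 to 136124660 held 17 LSD1, 7 IgG, 4 H3K4me2 and 0 Input reads. The peak from 136126121 to 136126663 held 22 LSD1, 22 IgG, 4 H3K4me2 and 1 Input reads. The peak from 136148624 to 136149119 held 22, 16, 9 and 0. In these 3, and also in the peaks starting at 136107729 and 136110044, the H3K4me2 library was the lowest of the ChIP and IgG libraries.

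Summed over the 6 peaks, LSD1 over IgG came to 1.15 (0.858 to 1.53). The interval was above 1 at 0 of the 6, against 89.6% of all LSD1 peaks. The IgG to Input interval was above 1 at 5 of the 6, against 2.96% of all LSD1 peaks. A called IgG peak overlapped 3 of the 6, against 0.705% of all LSD1 peaks. The IgG peaks ran from 136110106 to 136110222, from 136126367 to 136126445 and from 136148884 to 136148972, where 14, 19 and 10 IgG reads as aligned touched them, with 30, 20 and 12 LSD1 reads and 0, 1 and 0 Input reads. An H3K4me2 peak overlapped 2 of the 6, against 91.7% of all LSD1 peaks. These H3K4me2 peaks, from 136109948 to 136110396 and from 136110956 to 136111303, held 15 and 17 H3K4me2 reads beside 19 and 6 IgG reads. Over the 6 LSD1 peaks the H3K4me2 library stood below IgG, at a ratio of 0.441 (0.304 to 0.633), whereas over all LSD1 peaks it was at 5.22 (5.15 to 5.30). The peaks were called on the LSD1 reads counted here, which raises LSD1 in them.

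The signal lay in short stretches at the same places in both libraries. Stretches where at least 3 reads of a library lay on each other, as aligned and joined within 100 bp, are called blocks. IgG had 13 blocks in the window, from 3 to 166 bp long and 846 bp in all, all between 136106766 and 136149032, and at least 13 occurred in 0.109% of tiles of 75 kb, with a median of 0. Of these 13 IgG blocks, 12 overlapped an LSD1 block, against 5.85% of the 29769 IgG blocks of the genome. In the other 4 windows IgG had 1 block at Rcor1, 1 at Rcor2, 3 at Hdac1 and 0 at Hdac2, and none of these overlapped an LSD1 block. Of the window's IgG reads 32.9% touched the 13 blocks, and so did 29.7% of LSD1 reads and 11.9% of H3K4me2 reads, but 1.76% of Input reads. In reads that was 113 in IgG, 157 in LSD1, 72 in H3K4me2 and 3 in Input.

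Since IgG chose the blocks, only the other libraries are compared in them. LSD1 was 34.1-fold (11.5 to 167) and H3K4me2 14.2-fold (4.67 to 70.6) over Input in the blocks, against 1.45 (1.21 to 1.75) and 1.89 (1.59 to 2.26) in the rest of the window. LSD1 exceeded H3K4me2 in the blocks, 2.40-fold (1.80 to 3.22), and was below it outside, at 0.768 (0.671 to 0.878). The deepest IgG block, from 136126375 to 136126436, had 17 IgG reads on each other and was touched by 19 IgG, 20 LSD1, 4 H3K4me2 and 1 Input reads. Whether the blocks coincide with exons of Kdm1a was not tested. Nor was it tested whether their reads came from the gene in the cells' chromatin or from other DNA that carries Kdm1a sequence. The reads at the 6 LSD1 peaks cannot be told apart from what IgG recovered there.

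A different pattern was seen near the upper end of the window. The H3K4me2 peak from 136157073 to 136157779 held 26 H3K4me2, 8 LSD1, 1 IgG and 1 Input reads, with LSD1 over IgG at 6.52 (0.874 to 289). With all reads that touch it as aligned, 12 LSD1 and 1 IgG, it was 9.78 (1.45 to 418), so that the call there depends on how reads are placed. The 1 kb beside it, from 136156000 to 136156999, had the most H3K4me2 reads of any 1 kb bin of the window, 34, with 18 LSD1, 8 IgG and 4 Input reads. In this bin LSD1 RPM was 0.582 (0.310 to 1.06) of that of H3K4me2, and no IgG block was found. That interval held 1, and so did the LSD1 to IgG interval (1.83, 0.759 to 4.88). Of the 20092 bins of 1 kb in the genome with at least 34 H3K4me2 reads, 98.3% touched an H3K4me2 peak, which this bin did not, and 68.8% had an LSD1 to IgG interval above 1.

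**Figure D3:**
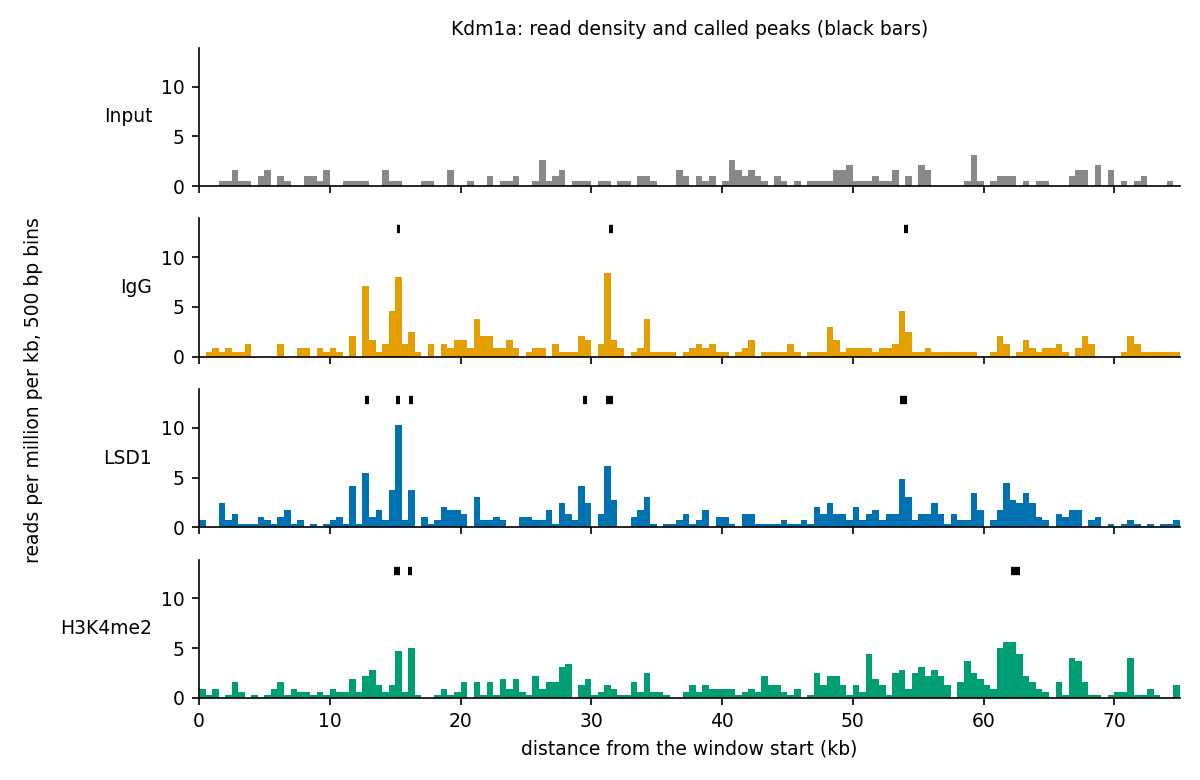
RPM per kb in bins of 500 bp (vertical axis) along the Kdm1a window (horizontal axis, kb from the window start) for the 4 libraries, with black bars for the called peaks of each list. The tall bins of IgG and LSD1 near 13, 15, 31 and 54 kb coincide and are absent from Input, while the broad H3K4me2 rise near 62 kb has an LSD1 rise below it, with IgG above LSD1 in the bin at 61.25 kb and below it in the next 3 bins.

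Rcor2 encodes a CoREST scaffold. Its window, chromosome 19 from 7335000 to 7355000, held 4 LSD1 peaks and 5 H3K4me2 peaks and no IgG peak. At least 4 LSD1 peaks occurred in 34 of 126318 tiles of 20 kb (0.0269%), and at least 5 H3K4me2 peaks in 0.580%. The second H3K4me2 peak ran from 7337931 to 7343093, and only 0.0341% of all H3K4me2 peaks were at least as wide as its 5163 bp. It held 307 H3K4me2, 155 LSD1, 28 IgG and 5 Input reads, which put LSD1 over IgG at 4.51 (3.0 to 7.01). IgG stood above Input here too, at 4.48 (1.71 to 14.8). The next peak, from 7343464 to 7344855, held 88 H3K4me2, 42 LSD1, 3 IgG and 5 Input reads, with a ratio of 11.4 (3.65 to 57.6). LSD1 followed the mark in both, at 0.555 and 0.525 of the H3K4me2 RPM, beside 0.514 over all H3K4me2 peaks.

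All 4 LSD1 peaks of Rcor2 lay inside these 2 H3K4me2 peaks, and 91.7% of all LSD1 peaks overlapped an H3K4me2 peak. The first, from 7339814 to 7340340, held 22 LSD1, 3 IgG, 51 H3K4me2 and 0 Input reads. The second, from 7341395 to 7342206, held 38 LSD1, 1 IgG, 60 H3K4me2 and 1 Input reads and was the strongest over IgG, 31.0-fold (5.23 to 1255). In contrast to Kdm1a, IgG was low at both. The third, from 7342243 to 7342689, held 16 LSD1, 3 IgG, 22 H3K4me2 and 0 Input reads. The fourth, from 7343948 to 7344529, held 28 LSD1, 1 IgG, 47 H3K4me2 and 3 Input reads. At all 4 the LSD1 to IgG interval was above 1, as it was at 89.6% of all LSD1 peaks. Summed over them LSD1 was 10.6-fold over IgG (5.18 to 25.2), and IgG was 1.60-fold over Input (0.428 to 7.25). As at Kdm1a, these peaks were called on the LSD1 reads counted here.

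The centres of neighbouring LSD1 peaks were 1724, 665 and 1773 bp apart. LSD1 was not limited to its called peaks: in the rest of the 6925 bp from 7337931 to 7344855 it was 3.26-fold (2.09 to 5.28) over IgG, with 100 LSD1 and 25 IgG reads. The gap of 370 bp between the H3K4me2 peaks held 8 H3K4me2, 7 LSD1, 2 IgG and 0 Input reads. The remaining 3 H3K4me2 peaks, starting at 7335164, 7345612 and 7350349, were weaker in LSD1. They held 1, 10 and 11 LSD1 reads against 0, 3 and 6 IgG reads, and 17, 20 and 31 H3K4me2 reads, in the order along the chromosome, and no interval was above 1. With starts not moved, the peak from 7345612 to 7346124 had 12 LSD1 and 2 IgG reads and an interval above 1 (4.89, 1.09 to 45.0). Outside all peaks of the window LSD1 was still above IgG, 1.95-fold (1.41 to 2.74), the highest such ratio of the 5 windows, with an interval that overlaps those at Hdac1 and Kdm1a.

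**Figure D4:**
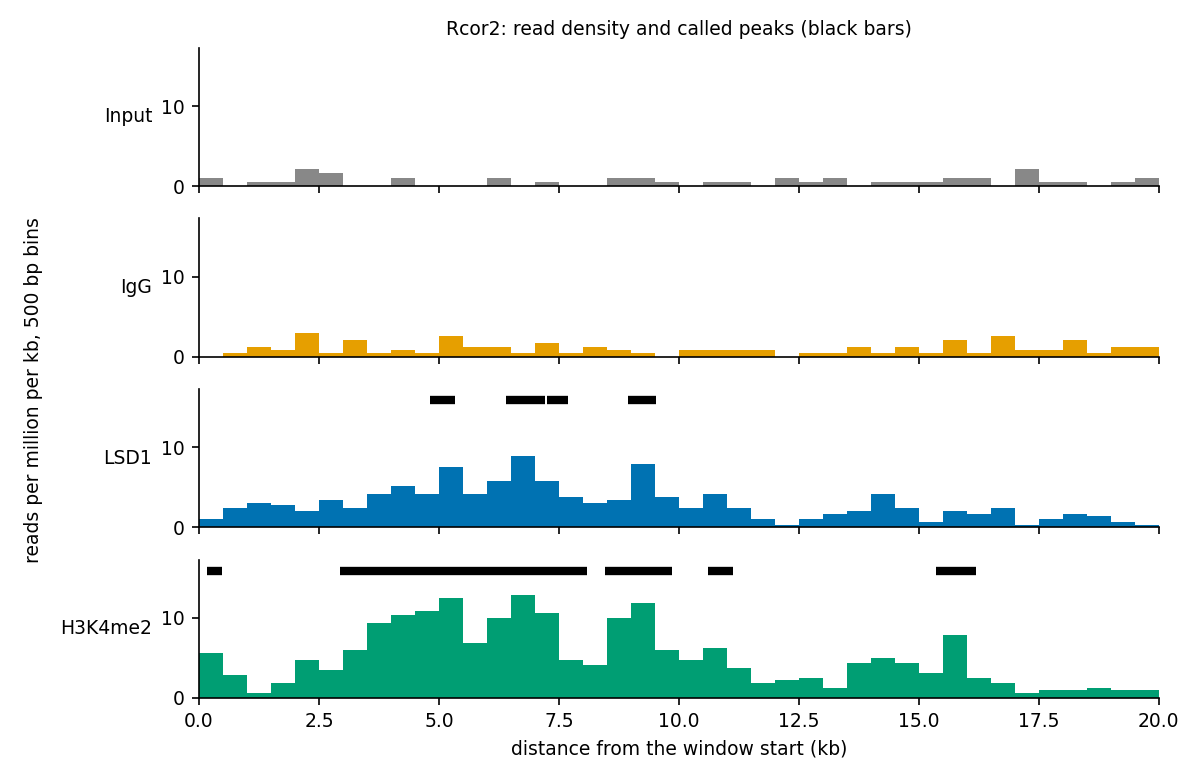
RPM per kb in bins of 500 bp (vertical axis) along the Rcor2 window (horizontal axis, kb from the window start) for the 4 libraries, with black bars for called peaks. LSD1 and H3K4me2 rise together over about 3 to 10 kb, where the 4 LSD1 peaks lie. IgG and Input stay below LSD1 there, with IgG at 2.52 and Input at 0 in the bin at 5.25 kb.

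Rcor1, the widely expressed CoREST scaffold, had no LSD1 peak in its window, chromosome 12 from 112265000 to 112360000, but had LSD1 reads above IgG at 2 H3K4me2 peaks. The peak from 112276221 to 112277241 held 50 H3K4me2, 22 LSD1, 1 IgG and 1 Input reads, with LSD1 over IgG at 17.9 (2.90 to 740). The peak from 112278122 to 112278902 held 37 H3K4me2, 17 LSD1, 4 IgG and 1 Input reads, a ratio of 3.46 (1.13 to 14.2). The remaining peak, further along from 112351883 to 112352344, held 17 H3K4me2, 5 LSD1, 2 IgG and 0 Input reads, too few to tell LSD1 from IgG (2.04, 0.334 to 21.4). In the first and second, LSD1 RPM was 0.484 and 0.505 of that of H3K4me2, beside the 0.555 of the wide Rcor2 peak, where LSD1 peaks were called. Outside the peaks of the window LSD1 was 1.17-fold over IgG (0.993 to 1.39).

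Hdac1 encodes the first of the deacetylases. Its window, chromosome 4 from 129185000 to 129230000, held 5 H3K4me2 peaks in 2 clusters and no LSD1 or IgG peak. The first cluster held 3 peaks starting at 129190219, 129190902 and 129192145, with 8, 9 and 5 LSD1 reads against 4, 4 and 4 IgG reads, and 30, 21 and 13 H3K4me2 reads. The second cluster held peaks starting at 129219959 and 129221367, with 5 and 15 LSD1 reads against 3 and 5 IgG reads, and 20 and 31 H3K4me2 reads. In none of the 5 was the LSD1 to IgG interval above 1, also with starts not moved. All 5 held fewer H3K4me2 reads than the median of 32 over all H3K4me2 peaks. Along the chromosome, 36.8%, 99.5%, 97.5%, 71.6% and 82.0% of all H3K4me2 peaks were at least as dense in H3K4me2 reads. With so few LSD1 and IgG reads in each, an interval that held 1 did not show that LSD1 was absent. Whether their sum passed depended on read placement and scaling, as given above (1.71, 0.983 to 3.08, against 1.92 and 1.85 with intervals above 1). Outside these peaks LSD1 was 1.40-fold over IgG (1.12 to 1.75), with 225 LSD1 and 131 IgG reads. Part of these lay just before the second cluster, from 129218500 to 129219958, an uncalled stretch chosen after the profile was seen. It held 45 H3K4me2, 34 LSD1, 6 IgG and 3 Input reads, with LSD1 over IgG at 4.62 (1.92 to 13.5). Against Input, which held 6 reads in the 5 peaks, LSD1 was 4.56-fold higher (1.93 to 13.1), and IgG was 2.66-fold above Input too (1.03 to 8.11).

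Stronger signal lay outside the Hdac1 window. Just above it, 2338 bp outside the window, an H3K4me2 peak from 129232338 to 129234907 held 139 H3K4me2, 81 LSD1, 12 IgG and 13 Input reads (LSD1 to IgG 5.50, 2.98 to 11.1). An LSD1 peak lay in it, from 129232576 to 129233653, with 48 LSD1 and 7 IgG reads. Below the window, 3 further H3K4me2 peaks between 129177060 and 129181303 held 28, 9 and 27 LSD1 reads against 2, 0 and 8 IgG reads. They were not counted with Hdac1, and to which gene any of them belongs was not determined. Within 10 kb of the other windows the lists held 1 further peak, an H3K4me2 peak beside Rcor2 from 7332026 to 7333352, with 24 LSD1 and 8 IgG reads.

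Hdac2 encodes the second deacetylase. Its window, chromosome 10 from 36685000 to 36730000, held no called peak, yet had 1 stretch where LSD1 and H3K4me2 reads rose together. The 1 kb bin with the most H3K4me2 reads, from 36694000 to 36694999, held 33 H3K4me2, 22 LSD1, 6 IgG and 3 Input reads. LSD1 over IgG came to 2.99 (1.18 to 9.01), in a bin chosen by H3K4me2 alone. Of the 21670 bins of 1 kb in the genome with at least 33 H3K4me2 reads, 97.8% touched an H3K4me2 peak and 67.5% had an LSD1 to IgG interval above 1.

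In steps of 200 bp around that bin, 8 neighbouring steps from 36693800 to 36695399 each held at least 5 H3K4me2 reads. These bounds were set after the counts were seen, so the values are a description. The 1600 bp held 57 H3K4me2, 38 LSD1, 8 IgG and 6 Input reads. The H3K4me2 level there was 5.55 RPM per kb, and 11.6% of all called H3K4me2 peaks were below that level. LSD1 was at 4.07 RPM per kb there, beside 3.99 in the uncalled stretch of Hdac1, which was also chosen after its values were seen. The whole window held 125 LSD1 reads against 96 IgG reads, with no excess beyond counting error.

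**Figure D5:**
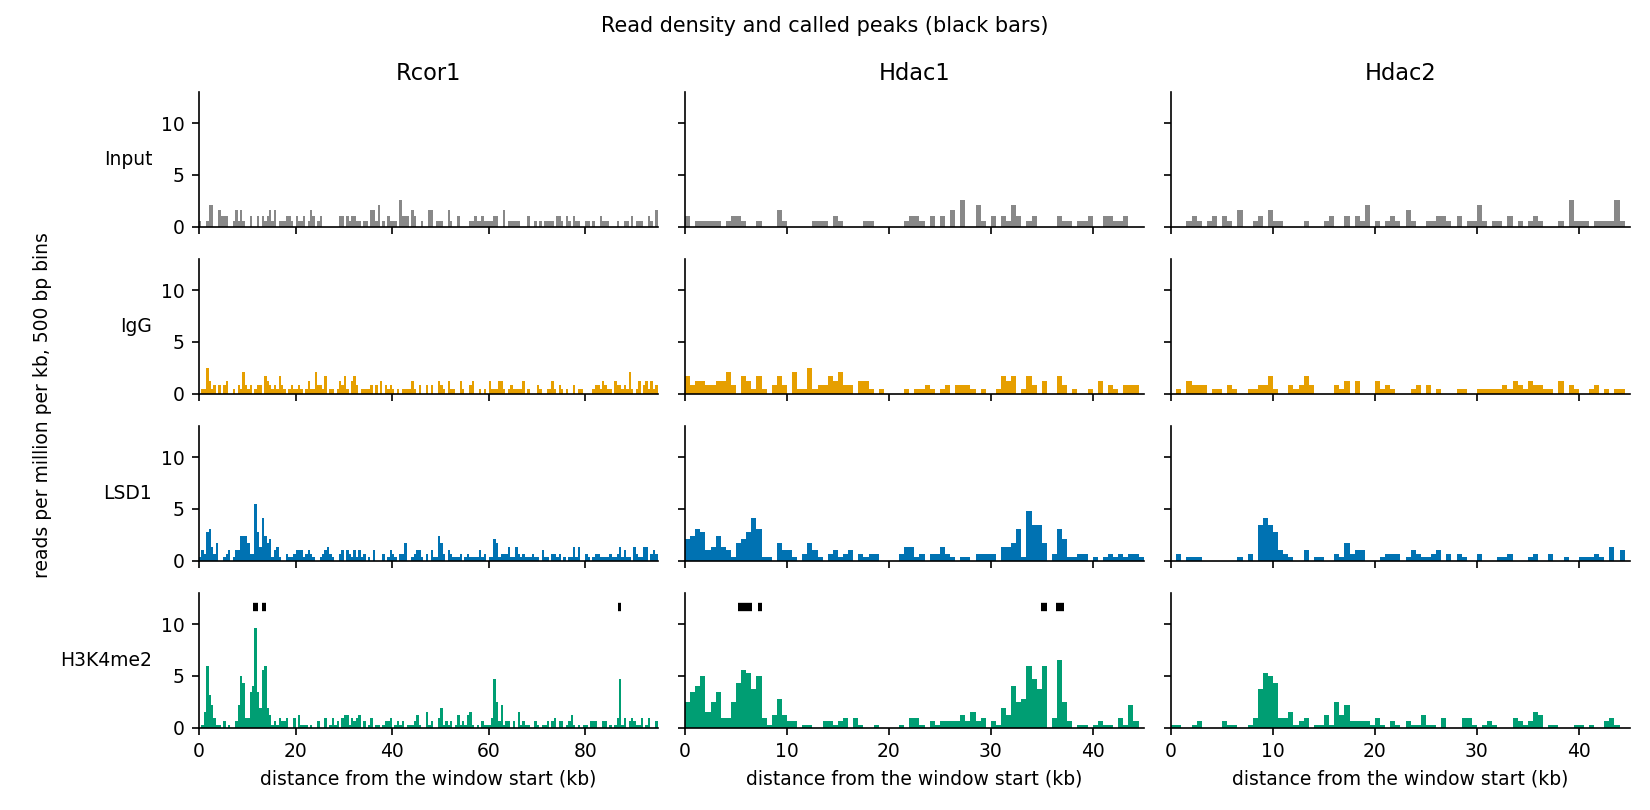
RPM per kb in bins of 500 bp (vertical axis) along the Rcor1, Hdac1 and Hdac2 windows (horizontal axes, kb from the window start) for the 4 libraries, with black bars for called peaks. LSD1 rises below the 2 H3K4me2 peaks of Rcor1 near 12 kb, before the second Hdac1 cluster, and near 9 kb of Hdac2, where no list holds a peak. LSD1 bins are also raised in both Hdac1 clusters, but none of the 5 H3K4me2 peaks there had an LSD1 to IgG interval above 1.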

How the data were processed

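ChIP-seq reads of 4 libraries (Input, IgG, LSD1, H3K4me2) were used. Per the labels' protocols, chromatin was fixed with formaldehyde and sonicated, library fragments near 200 bp were taken from an agarose gel, and reads of 36 bases came from a Genome Analyzer II. The authors deposited reads aligned to mm9 (build per the submitters' processing notes), used here as a count of 1 per line. No start and strand was repeated within a library, so counts are of distinct read positions. They also deposited peak positions, without scores, for IgG, LSD1 and H3K4me2. Aligner, peak caller and thresholds were not given in the sources used here.

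Read starts were moved 100 bp along their strand before counting, except for blocks and where reads are called as aligned. Intervals of RPM ratios are exact binomial 95% intervals given the 2 counts' sum. Peaks overlapped if they shared at least 1 bp. Tiles and 1 kb bins covered each chromosome over the span with reads, and tiles without an Input read were left out. Peaks and blocks were counted in a tile by their centre, but in a gene window by any overlap. Tile shares are over all tiles kept, with or without an H3K4me2 peak, unless stated. All LSD1 and IgG peaks, and the H3K4me2 peaks up to 5 a window, were named by rule. The members and lists were chosen with earlier results of these data known, and blocks, tiles, bins and edge peaks were added after seeing the data. Other genes of the complex were not analysed here, since no mm9 annotation was used. Counts simulated for H3K4me2 peaks with known folds and counting error alone served to test the ratio. They could not show errors from bias or from variation beyond counting. Alternatives were reads not moved, Input as control, scaling to reads outside peaks, other window edges, and other overlap, fold and list rules. Software was Python 3.11.15 with numpy 2.4.6, scipy 1.17.1, pandas 2.3.3 and, for plots, matplotlib 3.10.9.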

Additional observations from a re-analysis of the deposited data

How the results depend on the processing

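Of 129 alternative values for 31 results, 106 stayed within the counting interval or within 1.5 times the count and 23 moved. None of the values whose interval excluded 1 changed direction. In 10 cases an interval that held 1 came to lie above 1, namely those of Kdm1a and Hdac1 in H3K4me2 peaks with starts not moved (1.83, 1.92), with scaling to reads outside peaks (1.70, 1.85) and with Input, of Hdac1 with widened windows, and of 2 Kdm1a LSD1 peaks with Input. Scaling to reads outside peaks also did so for Rcor1 outside peaks (1.27, 1.07 to 1.5). The Hdac2 window fell to 0.936 with Input, and the LSD1 peaks of Kdm1a starting at 136107729 and 136126121 went from 0.767 and 0.815 to 10.4 and 14.3. With Input as control, LSD1 ratios over the whole windows were 2.03 at Kdm1a, 5.12 at Rcor2 and 2.20 at Hdac1. In the H3K4me2 peaks they were 16.3 at Kdm1a, 14.3 at Rcor1, 9.51 at Rcor2 and 4.56 at Hdac1, and those of H3K4me2 were 17.2, 30.8, 18.3 and 11.4. With IgG as control, the main setting, H3K4me2 was 1.65-fold higher (1.02 to 2.74) at Kdm1a and 11.0-fold (5.16 to 28.1) at Rcor1. It was 8.58-fold (6.20 to 12.2) higher at Rcor2 and 4.26-fold (2.64 to 7.24) at Hdac1. In the H3K4me2 peaks of Kdm1a Input held 2 reads, and IgG itself was 10.4-fold (2.60 to 90.3) over Input. Outside all peaks LSD1 over Input was 1.58 at Kdm1a, 2.85 at Rcor2 and 2.01 at Hdac1. The count of H3K4me2 peaks with an interval above 1 became 7 of 16 with Input, 6 of 16 with reads not moved and 9 of 21 with windows widened by 10 kb. With Input the share over all H3K4me2 peaks was 68.0%, and no such share is given for reads not moved. For the widened windows the rule for a peak was unchanged, and 54.4% of all H3K4me2 peaks passed it. The peaks that widening added lie outside the gene windows. Widening also gave 2.22 (1.85 to 2.66) for the Rcor2 window, which then overlapped Hdac1 (1.46 to 2.0), and 3.63 for the H3K4me2 peaks of Hdac1, which then include those beside its window. Trimming by 5 kb gave 4.39 for the Rcor2 window and 3.16 for it outside peaks. With only LSD1 peaks whose own interval lay above 1, a choice made after seeing the data, 2 of 16 H3K4me2 peaks overlapped one. The share over all H3K4me2 peaks is not given for that choice. Ratios against Input where it held no read gave no value. No paired analysis was possible because there was 1 library for each group. Depth limits single peaks: a peak with 1 to 3 IgG reads has an interval that spans more than 10-fold.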
